A study of Mus musculus with 12 samples.

Results

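The genes described here form cluster 2 of the genes with raised promoter H3K4me3 in the hippocampus of the Del/+ and Kansl1+/- mouse models, and they are seen through the gene ontology (GO) terms deposited for that cluster. GO terms are named sets of genes that share a function, a process or a place in the cell. All 104 terms listed for cluster 2 were taken, of 1076 term entries over the 8 tables of the series, which hold 490 distinct terms. H3K4me3 was measured by ChIP-seq on whole hippocampus of 12 C57BL/6N mice at postnatal day 30, of which 3 were Del/+, 3 Kansl1+/-, 3 Del wt and 3 Kansl1 wt. Del/+ mice carried 1 copy of a Cre/loxP deletion that runs from Arf2 to Kansl1, and so lacked 1 copy of every gene between them as well. Kansl1+/- mice carried 1 Kansl1 allele of the tm1b type, in which Cre had removed an exon, and came from a single clone of embryonic stem cells. Each mutant group was set against the same 6 wt libraries, pooled over both lines, so the lists from the 2 models share their controls. Whole hippocampus mixes neurons, glia and vessel cells, and a change in the mark cannot be told apart from a change in the share of a cell type.

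The tables hold, for each term, the number of genes of the cluster, the number of genes of the background and the number expected by chance. They hold no value per mouse, no gene name and no coordinate, so the depth behind each value is unknown and no spread between mice could be given. The direction of the mark and the marker genes of the tissue were not checked here. The 104 terms were selected on the authors' own enrichment test, so their counts above expectation are a description and were not tested again. The printed expected numbers fitted a cluster of 214 genes and a background of 23468 genes. Shares are given below as percent of those 214 genes with 95% intervals by the exact method of Clopper and Pearson. Those intervals allow for counting error alone and treat genes as independent, although many terms are nested and hold the same genes. Clusters 1, 3 and 4, made from the same comparisons, held 160, 212 and 162 genes.

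H3K4me3, the trimethylation of lysine 4 on histone H3, marks the promoters of genes that are active or poised. KANSL1 is the scaffold of the nonspecific lethal complex, which acetylates histone H4 at promoters and shares its WDR5 subunit with the enzymes that write the H3K4me3 mark. In brain tissue the mark lies at promoters in neurons and glia alike.

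Small sets of nucleosome, smooth muscle, antimicrobial and receptor genes had the highest counts relative to expectation. Large sets for development, neuron differentiation, neuron parts, membranes and the extracellular region held many genes of the cluster at low ratios. The ratio of observed to expected genes ran from 1.41 for membrane (120 of 214 genes) to 36.4 for urinary bladder smooth muscle contraction (4 genes), with a median of 3.53. Of the 104 terms, 52 were listed for cluster 2 and for no other cluster, and 14 were listed for all 4 clusters. Of the 508 term entries of the 4 clusters together, 48.8% were listed for a single cluster, so the 50% of cluster 2 was near that share. By cluster it was 65.3% in cluster 1, 25.6% in cluster 3 and 44.9% in cluster 4. When all 7 other tables were counted, 15 terms were listed for cluster 2 alone, and among terms of at most 1000 background genes 3 were listed for all 4 clusters.

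**Figure D1:**
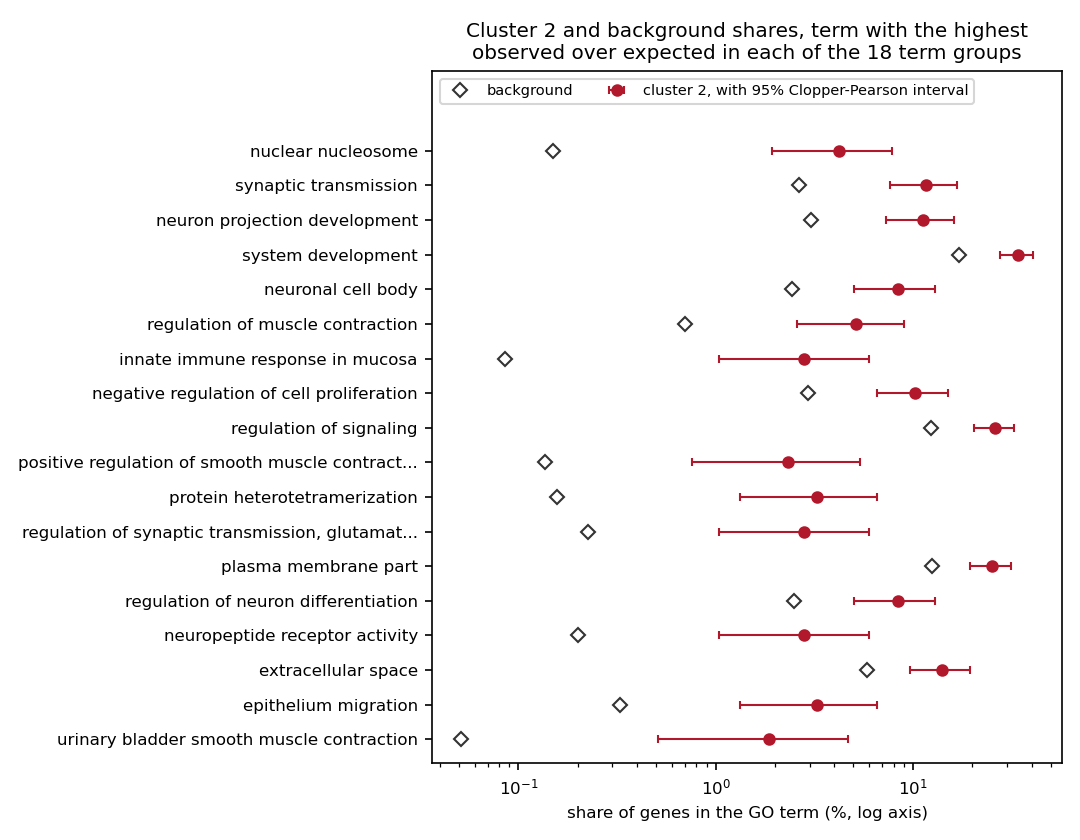
Share of genes in the term with the highest ratio of observed to expected genes in each of the 18 groups in which the authors arranged the cluster 2 terms (percent, log axis). Filled points are cluster 2 with exact 95% intervals and open diamonds the background; nuclear nucleosome stands at 4.21% against 0.149%, and system development at 34.1% against 17.2%.

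The terms listed for cluster 2 alone were mostly small. Their median size was 107 background genes, against 1687.5 for terms also listed for another cluster. All 47 cluster 2 terms of at most 500 background genes were listed for cluster 2 alone as were 5 of the larger ones, namely regulation of system process, regulation of MAPK cascade, extracellular space, intrinsic component of membrane and membrane. Of the 181 entries of that size over the 4 clusters, 157 (86.7%) were listed for a single cluster. A small term has to hold many times its expected number before it is listed, and so size and ratio moved together. Recomputed from the counts, 30 of the 104 terms held the smallest number of genes at which they would still have been listed, and the median term held 1 gene more than that. The term nearest the limit was positive regulation of smooth muscle contraction, with 5 of its 32 genes in the cluster, where 4 would not have been listed. The tables give no term just outside the limit. Cell-cell signaling, at 11 genes above its limit, system development, at 10, and nucleosome, at 6, stood well inside it.

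**Figure D2:**
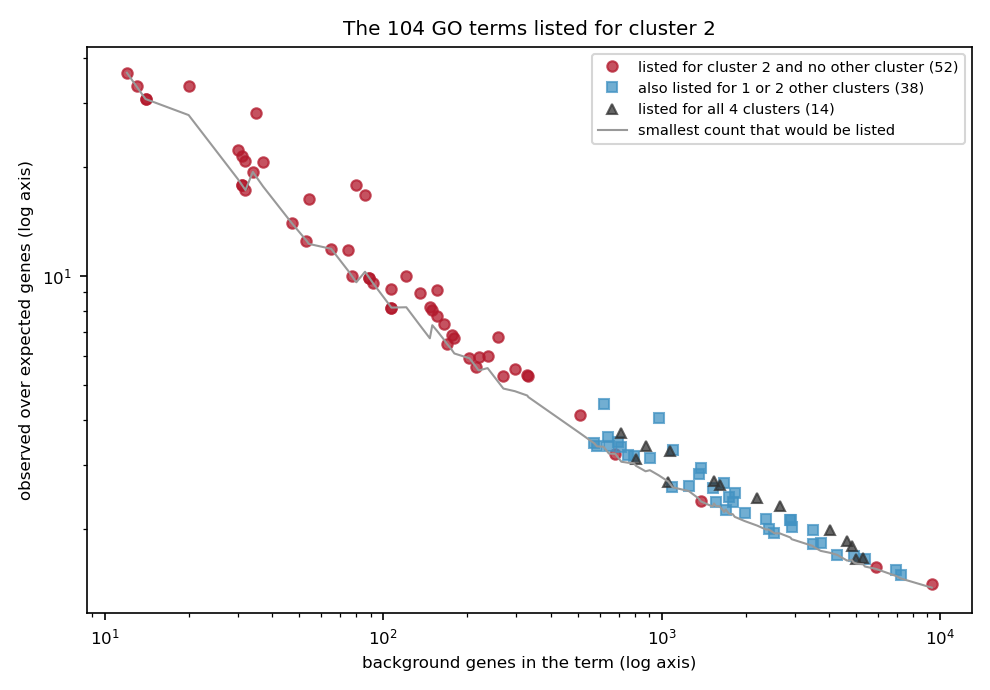
Observed over expected genes against the number of background genes in each of the 104 cluster 2 terms (both axes logarithmic); symbols mark terms listed for cluster 2 alone (52), for 1 or 2 other clusters (38) and for all 4 clusters (14). The grey line is the ratio at the smallest count that would have been listed; 30 terms lie on it, and no term with 500 background genes or fewer was listed for another cluster.

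Nucleosome and chromatin assembly genes made up the first group of terms. Nucleosomes are the spools of core histones around which DNA is wound. The cluster held 13 of the 80 background genes of nucleosome, or 6.07% of its genes (3.27 to 10.2%), where 0.73 were expected, a ratio of 17.8. The same count of 13 came back for DNA packaging complex (86 background genes, ratio 16.7) and for protein-DNA complex (156 background genes, ratio 9.15). Nuclear nucleosome, a child term of nucleosome, held 9 genes of 35, which is 25.7% of the term and a ratio of 28.1. Counts that repeat over nested terms can come from 1 set of genes, and the tables do not name them.

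The process terms for packing DNA into chromatin gave 11 genes each. These were nucleosome assembly (121 background genes, ratio 10), chromatin assembly (135), nucleosome organization (147), protein-DNA complex assembly (150), chromatin assembly or disassembly (156), protein-DNA complex subunit organization (176) and DNA packaging (180, ratio 6.71). In each, the share was 5.14% (2.59 to 9.01%). Narrower terms stood in a group of their own. Protein heterotetramerization, the joining of 4 subunits that are not all alike, held 7 of 37 genes with a ratio of 20.6. DNA replication-dependent nucleosome assembly and DNA replication-dependent nucleosome organization, which cover the histones laid down as DNA is copied, each held 5 of 31 genes with a ratio of 17.9.

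All 14 nucleosome and chromatin terms were listed for cluster 2 and for no other cluster, as were all 47 cluster 2 terms of at most 500 background genes, and this count sets them apart from no other cluster 2 term of that size. A term that is not listed still has a largest count it could have had without being listed, if each table holds every term past the limit. For nucleosome this was 6 genes in each of clusters 1, 3 and 4, or at most 3.75%, 2.83% and 3.70% of their genes, against 13 genes and 6.07% in cluster 2. The lower end of the cluster 2 interval, 3.27%, lay above the largest possible share in cluster 3 and below those in clusters 1 and 4. No term listed for cluster 2 alone had an interval above the largest possible share in all 3 other clusters, and 27 of the 52 had a share above it. These limits depend on the size of the list as well as on the term. The difference between clusters was not tested.

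The lists of all genes raised in each model gave different values for these terms. Their sizes were solved from the expected numbers. For Del/+ the solved size is larger than the number of raised promoters that the paper reports. The list for Kansl1+/- (343 genes) had 14 nucleosome genes, 4.08% of the list (2.25 to 6.75%), and 10 nuclear nucleosome genes, and it listed 10 of the 14 terms, where it listed 61.6% of the 490 distinct terms. The list for Del/+ (512 genes) listed none of the 14 terms, where it listed 51% of the distinct terms. It could have held at most 9 nucleosome genes, 10 of DNA packaging complex and 6 nuclear nucleosome genes, all below the counts in cluster 2. For the other 11 terms it could have held as many genes as cluster 2 or more without listing them, such as 13 of protein-DNA complex and 12 of nucleosome assembly. Over all 104 terms, the Kansl1+/- list could have held the cluster 2 count or more in each of the 24 terms it did not list, and the Del/+ list in 38 of its 42, so a term missing from these longer lists does not mean fewer of its genes. The clusters were drawn from genes raised in either of these comparisons, so these lists are not independent of cluster 2. The paper describes cluster 2 as genes up-regulated in both models, with DNA packaging and nucleosomes among its enriched terms. If every term past the listing limit was listed for Del/+, not all nucleosome genes of cluster 2 could have been in the Del/+ list. That condition was not checked, and whether the remaining genes were raised in Del/+ without entering its list was not tested.

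**Figure D3:**
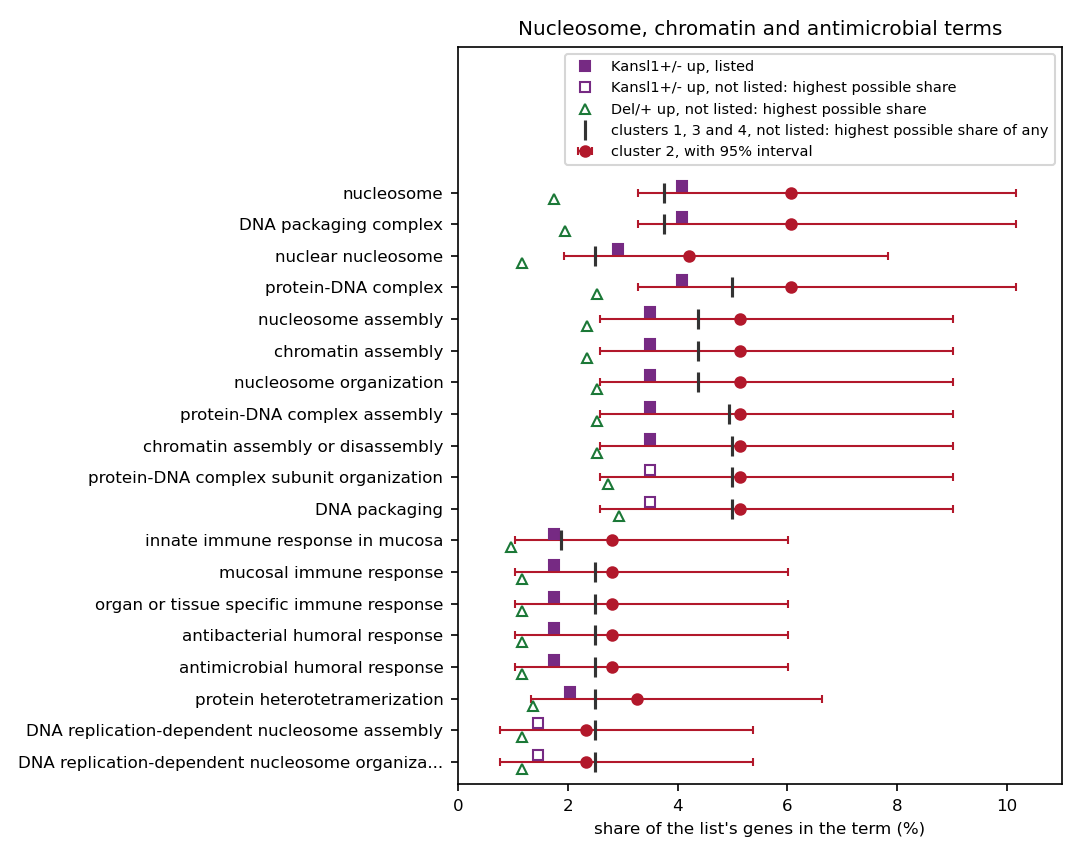
Share of the list's genes (percent) in 14 nucleosome and chromatin terms and 5 mucosal and antimicrobial terms. Filled circles are cluster 2 with exact 95% intervals, filled squares the Kansl1+/- up list, open symbols the highest share an unlisted term could have had, and black ticks the same over clusters 1, 3 and 4. For nucleosome, cluster 2 stands at 6.07%, Kansl1+/- up at 4.08% and Del/+ up at no more than 1.76%.

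Mucosal and antimicrobial response terms cover the secreted peptides and immune signals with which epithelia hold back microbes, and some core histones are annotated to such terms in GO. Innate immune response in mucosa held 6 of 20 background genes, which is 2.80% of cluster 2 (1.04 to 6.00%) and a ratio of 33.3. Mucosal immune response (30 background genes), organ or tissue specific immune response (31), antibacterial humoral response (32) and antimicrobial humoral response (34) each held 6 genes as well, with ratios from 22.2 down to 19.4. All 5 terms, each far below 500 background genes, were listed for cluster 2 and no other cluster, as were all cluster 2 terms of that size. The Kansl1+/- list had 6 genes in each of the 5 terms, and the Del/+ list had none of the terms. These lists held 61.6% and 51% of the 490 distinct terms. Del/+ could have held at most 5 genes of innate immune response in mucosa, but 6 genes, as many as cluster 2, of each of the other 4 terms. Whether the 6 genes are among the 13 nucleosome genes cannot be read from the tables.

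Circulation and muscle gave 19 terms in 3 of the authors' groups, all listed for cluster 2 alone, as small terms mostly were. The groups also hold serotonin receptor terms and a receptor signalling term, kept here with the group in which the authors placed them. Regulation of blood circulation held 16 of 259 background genes, 7.48% of the cluster (4.33 to 11.9%), with a ratio of 6.78. The wider terms blood circulation (329 background genes, ratio 5.33) and circulatory system process (332, ratio 5.28) also held 16. Regulation of system process, a wide term for the control of organ function, held 19 of 507 genes with a ratio of 4.11. Contraction terms in this group were smaller. Muscle contraction held 12 of 220 genes, muscle system process 13 of 270, regulation of muscle contraction 11 of 165 and regulation of muscle system process 11 of 215, with ratios between 5.28 and 7.33.

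Smooth muscle, which sets the width of vessels and moves hollow organs, formed the second group of these terms. Smooth muscle contraction held 8 of 54 background genes, 3.74% of the cluster (1.63 to 7.23%), with a ratio of 16.3. Regulation of vasoconstriction, the narrowing of vessels, held 8 of 75 with a ratio of 11.8, and regulation of smooth muscle contraction 7 of 65 with a ratio of 11.9. Positive regulation of smooth muscle contraction held 5 of 32. Vascular process in circulatory system and positive regulation of blood circulation each held 8 of 107. The group also contained the phospholipase C-activating G-protein coupled receptor signaling pathway, by which many transmitters and hormones release calcium inside the cell, with 8 of 89 genes and a ratio of 9.88. Of the 7 terms of this group, 2 were listed for Kansl1+/- and 3 for Del/+, where 61.6% and 51% of the 490 distinct terms were. Both lists could have held the cluster 2 count in each term of the group that they did not list.

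The last group of the 18 rested on 4 genes in each term. Urinary bladder smooth muscle contraction (12 background genes), urinary tract smooth muscle contraction (13), serotonin receptor activity and serotonin receptor signaling pathway (14 each) had ratios from 30.8 to 36.4, a range reached otherwise only by innate immune response in mucosa. Serotonin receptors are the cell-surface proteins through which serotonin acts on neurons and on smooth muscle. Each share was 1.87% with an interval from 0.512 to 4.72%, and each count was the smallest that would have been listed. None of the 4 terms was listed in any other table, but clusters 1, 3 and 4 could each have held 3 genes of every one without listing it, and the lists of raised or lowered genes of either model 4, as many as cluster 2.

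A further set of receptor and synaptic terms was listed for cluster 2 alone. So were all 47 cluster 2 terms of at most 500 background genes. Over the 4 clusters, 86.7% of the entries of that size were listed for a single cluster. Neuropeptide signaling pathway, which covers peptide messengers and the receptors they act on, held 9 of 107 genes (4.21%, 1.94 to 7.83%) with a ratio of 9.18. Neurotransmitter receptor activity held 8 of 92 with a ratio of 9.52, and neuropeptide receptor activity 6 of 47 with a ratio of 13.95. Of these 3 terms, the Del/+ list had only neuropeptide signaling pathway, with 14 of its 512 genes (2.73%), and the Kansl1+/- list had none. Of the 490 distinct terms, 51% were listed for Del/+ and 61.6% for Kansl1+/-. Kansl1+/- could have held 9, 8 and 6 genes of the 3 terms, the counts of cluster 2, without listing them. Del/+ could have held 10 genes of neurotransmitter receptor activity and 7 of neuropeptide receptor activity unlisted, more than cluster 2. Regulation of synaptic transmission held 15 of 297 genes, 7.01% (3.98 to 11.3%), and regulation of synaptic transmission, glutamatergic, which concerns the main excitatory transmitter of the hippocampus, held 6 of 53 with a ratio of 12.5. Regulation of behavior held 13 of 237 genes with a ratio of 6.02. The Kansl1+/- and Del/+ lists each had 19 genes of regulation of behavior, which is 5.54% of the former and 3.71% of the latter. Response to alcohol held 10 of 169 genes, and G-protein coupled receptor signaling pathway, coupled to cyclic nucleotide second messenger, held 11 of 204. Regulation of synaptic transmission was listed for Kansl1+/- (17 genes) and Del/+ (28), and response to alcohol for Kansl1+/- (13). The glutamatergic term (10 genes) and the cyclic nucleotide term (20) were listed for Del/+. Clusters 1, 3 and 4 could have held 6, 7 and 6 genes of neuropeptide signaling pathway without listing it. In response to alcohol, cluster 1 could have held 5% of its genes unlisted, against 4.67% in cluster 2.

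The remaining terms listed for cluster 2 alone came from 4 groups. Tissue migration held 8 of 89 genes and epithelium migration 7 of 77, with ratios of 9.88 and 10. Regulation of MAPK cascade, the control of a kinase chain that carries growth signals to the nucleus, held 20 of 681 genes, 9.35% (5.8 to 14.1%). Extracellular space held 30 of 1381 genes, intrinsic component of membrane 84 of 5874 and membrane 120 of 9331, with ratios of 2.38, 1.57 and 1.41. For these large terms being unlisted elsewhere says little, since cluster 1 could have held 90 membrane genes (56.2%) without listing the term, against 56.1% in cluster 2.

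Terms for the making of neurons were shared between the clusters. Of the 104 cluster 2 terms, 38 (36.5%) were also listed for cluster 1, 45 (43.3%) for cluster 3 and 26 (25%) for cluster 4. Over the 490 distinct terms of all 8 tables, 38.8% were listed for cluster 1, 25.5% for cluster 3 and 18.2% for cluster 4, so the share with cluster 1 was near its background. The same counts were 20.0% of the 190 terms of cluster 1, 36.0% of the 125 of cluster 3 and 29.2% of the 89 of cluster 4. By pattern, 17 terms were shared with clusters 1 and 3, 14 with clusters 1, 3 and 4, 12 with clusters 3 and 4, 7 with cluster 1 only and 2 with cluster 3 only.

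**Figure D4:**
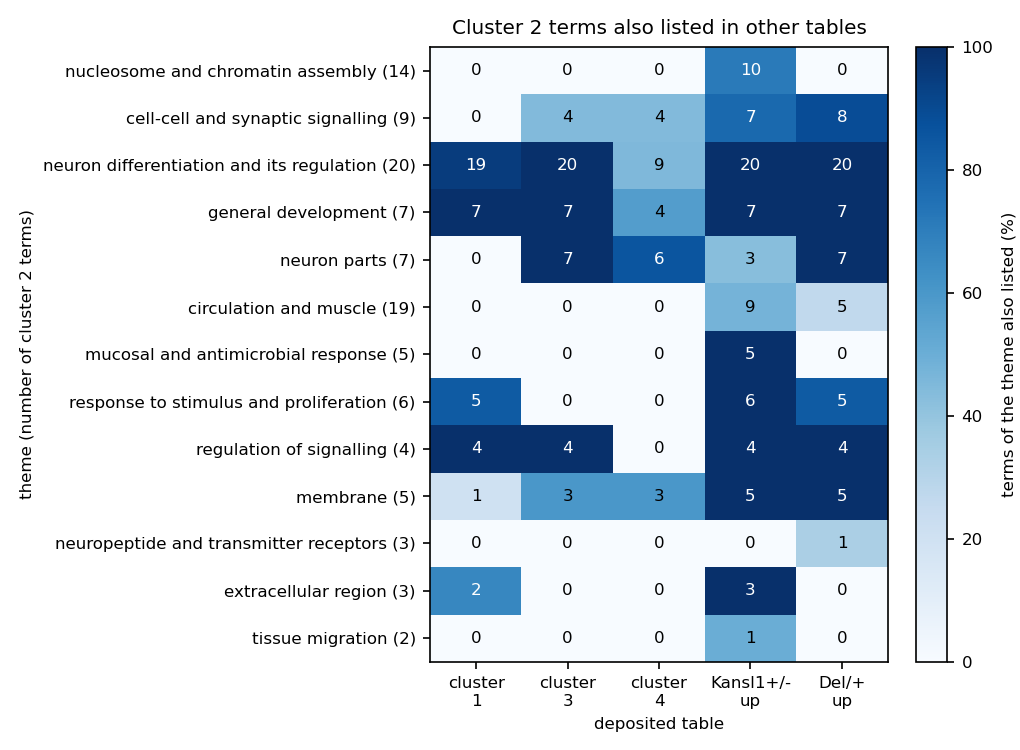
Number of cluster 2 terms of each of 13 themes that were also listed in 5 other tables, with the colour giving the percent of the theme's terms. Neuron differentiation and general development recur in every table drawn, though in cluster 4 with only 9 of 20 and 4 of 7 terms. In the Kansl1+/- up list 10 of the 14 nucleosome and chromatin terms and all 5 mucosal and antimicrobial terms recur. None of them recurs in the other tables drawn.

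Neuron differentiation and its regulation was the largest theme, with 20 terms, of which 9 were listed for all 4 clusters. The theme follows the authors' groups and also holds wide terms that name no neurons. Among these are cell differentiation, cell development, regulation of developmental process and regulation of multicellular organismal process. Nervous system development held 49 of 2204 background genes, 22.9% of the cluster (17.4 to 29.1%), and stood at 26.2% in cluster 1, 29.2% in cluster 3 and 27.8% in cluster 4. Neurogenesis held 39 genes, 18.2% (13.3 to 24.1%), against 23.8%, 23.6% and 19.1% in clusters 1, 3 and 4. Generation of neurons held 38 genes (17.8%) and neuron differentiation 32 (14.95%). The most compact of these terms, neuron projection development, which covers the outgrowth of axons and dendrites, held 24 of 716 genes with the theme's highest ratio, 3.68. Neuron development (27 genes), cell projection organization (26), regulation of nervous system development (23) and regulation of multicellular organismal process (56) completed the 9.

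The other 11 terms of the theme were listed for cluster 3 and, except positive regulation of multicellular organismal process, for cluster 1. Cell differentiation held the most genes, 58 of 3504, which is 27.1% of cluster 2, against 38.8% of cluster 1 and 33.5% of cluster 3. Regulation of cell differentiation held 41 genes (19.2%), against 20.0% and 21.2%. Regulation of cell development held 26 genes and regulation of neuron differentiation 18, with ratios of 3.14 and 3.38.

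General development gave 7 terms with 73 to 98 genes each, 4 of them listed for all 4 clusters. System development held 73 genes, 34.1% of cluster 2 (27.8 to 40.9%), where the background had 17.2%. The shares in clusters 1, 3 and 4 were 43.1%, 38.7% and 35.2%. Multicellular organismal development (36.4%), anatomical structure development (36.9%) and single-organism developmental process (37.4%) were the others listed for all 4. Single-multicellular organism process and multicellular organismal process, with 98 genes each (45.8%), held the most genes of the theme and were listed for clusters 1 and 3.

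**Figure D5:**
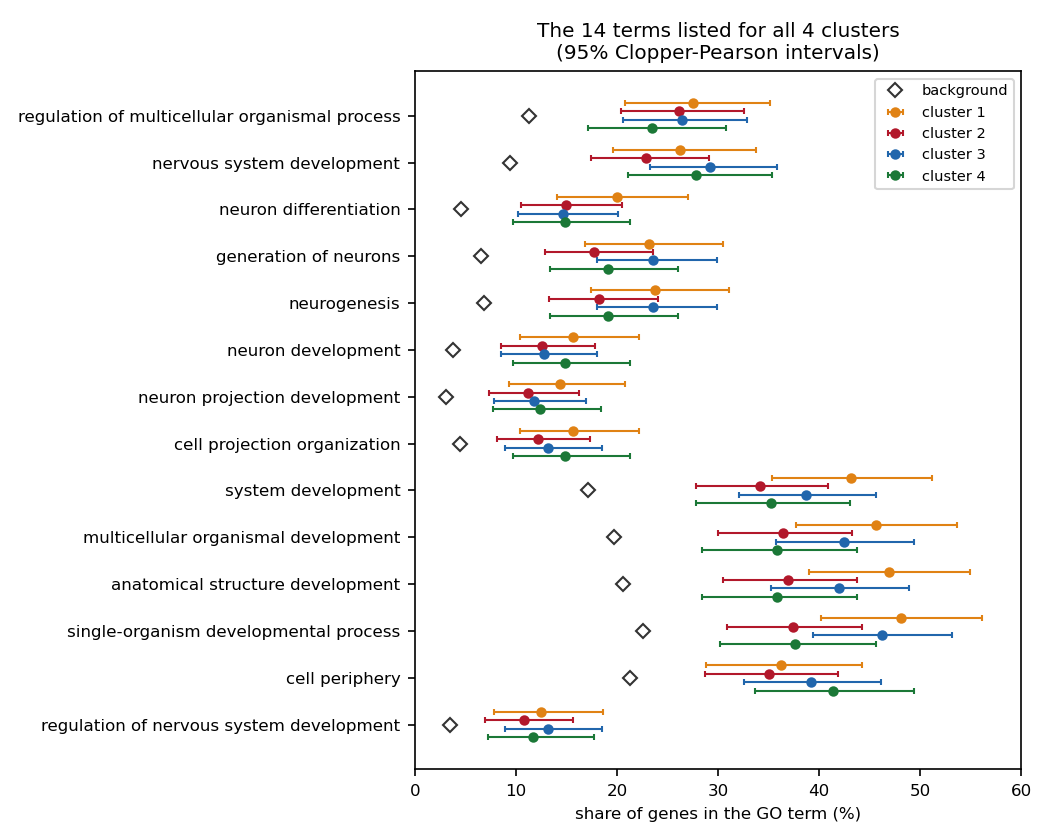
Share of genes (percent) in the 14 terms listed for all 4 clusters; points are clusters 1 to 4 with exact 95% Clopper-Pearson intervals and open diamonds the background. The cluster 2 interval overlaps that of every other cluster in each term, and cluster 2 lies below cluster 1 in all 14.

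In the shared terms, cluster 2 had the smaller share more often than not. Its share was below that of cluster 1 in 38 of 38 terms, with a median difference of -3.81 percentage points and a range from -12.1 to -0.84. It was below that of cluster 3 in 39 of 45 terms (median -2.44 points) and below that of cluster 4 in 22 of 26 (median -2.25 points). The 95% intervals of the clusters overlapped in all 38, 45 and 26 terms. Part of this order follows from listing, since each list needs a certain share before a term is listed, and the smaller clusters 1 and 4 mostly need a larger one. In 21 of the 38 terms, 6 of the 45 and 12 of the 26, the cluster 2 share was below any share at which the other cluster could have listed the term. The shares also come from nested terms, and the difference was not tested.

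Neuron parts, the terms for places within the neuron, were shared with clusters 3 and 4 but not with cluster 1. Neuron part held 37 genes, 17.3% of cluster 2 (12.5 to 23.04%), against 24.1% of cluster 3 and 20.4% of cluster 4. Neuron projection held 33 genes (15.4%), against 21.7% and 17.3%. Synapse held 22 genes (10.3%, 6.56 to 15.2%), against 15.6% and 14.2%, and cluster 1 could have held 17 genes (10.6%) without listing it. Somatodendritic compartment, the cell body and dendrites together, held 23 genes, cell projection 40 and neuronal cell body 18. Cell body, with 20 genes, was listed for cluster 3 alone among the other clusters. Cluster 1 could also have held 19.4% of its genes in cell projection unlisted, against 18.7% in cluster 2. For neuronal cell body this was 8.75% against 8.41%, and for cell body 9.375% against 9.35%. Its limit was below the cluster 2 share for neuron part, neuron projection and somatodendritic compartment. All 7 terms were listed for Del/+, and neuron projection, neuron part and cell body for Kansl1+/-. Of the 490 distinct terms, 51% were listed for Del/+ and 61.6% for Kansl1+/-. The Kansl1+/- list could have held more genes of each of the other 4 than cluster 2 did without listing them.

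Signalling between cells gave 4 terms shared with clusters 3 and 4. Synaptic transmission held 25 of 618 genes, 11.7% (7.70 to 16.8%) with a ratio of 4.43, against 12.7% in cluster 3 and 16.7% in cluster 4. Cell-cell signaling held 36 genes (16.8%), slightly more than in cluster 3 (16.5%) and less than in cluster 4 (19.1%). Regulation of ion transport held 21 genes (9.81%) and regulation of localization 44 (20.6%). Plasma membrane part (54 genes) and plasma membrane (75) were listed for the same clusters, and cell periphery (75 genes, 35.0%) for all 4.

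Control of signalling gave 4 terms listed for clusters 1 and 3. Regulation of response to stimulus held 63 genes, 29.4% of cluster 2 (23.4 to 36.0%), against 30.6% in cluster 1 and 26.4% in cluster 3, and was among the 6 terms in which cluster 2 exceeded cluster 3. Regulation of signaling and regulation of cell communication each held 56 genes (26.2%) and regulation of signal transduction 45 (21.0%).

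Response to stimulus, proliferation and extracellular terms were shared with cluster 1 only. Without listing them, cluster 4 could have held 17.3% of its genes in tissue development and 32.1% in extracellular region, more than cluster 2 held. Its limit was also slightly higher for extracellular region part and regulation of cell proliferation. It was lower for both response terms and for negative regulation of cell proliferation. Cluster 3 had lower limits in all 59 cluster 2 terms it did not list. With 212 genes in cluster 3, 214 in cluster 2 and the same listing limit, this was all but certain beforehand. It is therefore no check on whether cluster 3 held fewer genes of these terms. Response to external stimulus held 42 genes, 19.6% of cluster 2 (14.5 to 25.6%), against 21.2% of cluster 1. Response to endogenous stimulus held 35 genes (16.4%), negative regulation of cell proliferation 22 (10.3%) and regulation of cell proliferation 34 (15.9%). Tissue development stood at 16.4% in cluster 2 (11.7 to 22.0%) and 26.2% in cluster 1, 9.89 points apart, where developmental process had the widest gap between these clusters at 37.9% against 50%. Extracellular region (66 genes, 30.8%) and extracellular region part (62 genes, 29.0%) were listed for cluster 1 at 35.0% and 32.5%. These 2 terms, extracellular space and regulation of MAPK cascade were listed for Kansl1+/- and not for Del/+, which could have held 132, 118, 55 and 33 of their genes without listing them.

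Set against the lists of single models, 80 of the 104 terms (76.9%) were listed for Kansl1+/- and 62 (59.6%) for Del/+, where 61.6% and 51% of the 490 distinct terms were. Both lists had 53, Kansl1+/- alone had 27, Del/+ alone had 9 and 15 were in neither. The 27 were led by the chromatin (10), mucosal (5) and extracellular (3) terms and by circulation and muscle (6). Regulation of blood circulation, at 7.48% of cluster 2, stood at 4.96% of the Kansl1+/- list (17 genes) and 5.08% of the Del/+ list (26 genes). Synaptic transmission, at 11.7% of cluster 2, stood at 13.5% of the Del/+ list and 8.16% of the Kansl1+/- list. None of the 104 terms was listed for genes with lowered H3K4me3, but those tables hold 14 terms for Kansl1+/- and 2 for Del/+, or 2.86% and 0.408% of the 490 distinct terms, so that this count says little. Both models were compared with the same wt libraries, and these values are given side by side without a test.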

How the data were processed

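H3K4me3 ChIP-seq was done on 12 hippocampi by the study. Reads were mapped with BWA 0.6.2, and the submitters' processing notes name build mm9. The authors called peaks with a custom script and compared 3 mutant libraries with 6 wt libraries by DESeq2. Tables of GO terms were deposited, 1 per gene list, with gene counts per list, not per library, and the number expected, which is a score the authors derived from list and background sizes. Columns of the authors' p-values and fold enrichment were not used. Per-sample columns left unused numbered 0, and the depth per library is unknown.

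Observed over expected was the gene count divided by the deposited expected number. List and background sizes were solved from the expected numbers (rounded to within 0.005), a step tested on simulated data in which 8 of 8 list sizes were recovered. Shares have exact 95% Clopper-Pearson intervals. Terms were taken as listed when their hypergeometric tail was at most 9.91e-06, the largest tail of any listed term; this only set the smallest count that would be listed and served as no test. Named terms were those listed for cluster 2 alone, for all 4 clusters, or leading 1 of the 18 term groups by count or ratio, with further shared terms named for their theme after their values were seen. The members, themes and lists were chosen with earlier results of these data known. Alternatives covered matching by name, term size, term count, the tables compared, the interval, the expected number and 1 gene fewer. Python 3.11.15, scipy 1.17.1 and matplotlib 3.10.9 were used.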

Additional observations from a re-analysis of the deposited data

How the results depend on the processing

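Matching terms by name, keeping terms of at most 1000 background genes and keeping terms with at least 8 genes left 52, 49 and 35 terms for cluster 2 alone. Against all 7 other tables instead of the other 3 clusters, 15 of the 52 were listed for cluster 2 alone. The terms listed for all 4 clusters numbered 3 instead of 14 when terms above 1000 background genes were left out. With 1 gene fewer, the ratio of each of the 80 terms named by rule fell by 0.833 to 25%. Each stayed within its own interval, which was certain at these counts and so is no check. By the listing limit, the 30 cluster 2 terms at their smallest listed count would no longer have been listed with 1 gene fewer. The computed expected number moved a ratio by at most 1.83%. Wilson intervals raised the lower bound by 0.218 to 0.337 points. With each table's own listing limit, 4 of 173 largest possible counts changed. No paired analysis was possible because the tables hold no value per mouse, and leaving out a replicate was not possible for the same reason.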

Other observations

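Of the terms of every kind that were listed for other clusters and not for cluster 2, 196 were listed for 1 other cluster, 45 for 2 and 3 for all 3. Several neuronal terms were among them. Cell morphogenesis involved in neuron differentiation (563 background genes) was listed for all 3, with 19, 22 and 15 genes in clusters 1, 3 and 4, or 11.9%, 10.4% and 9.26%. Cluster 2 could have held up to 17 of its genes (7.94%) without the term being listed. Axon, the long output process of a neuron, had 26 genes in cluster 3 (12.3%) and 18 in cluster 4 (11.1%), against at most 15 in cluster 2 (7.01%). Dendrite had 23 and 18 genes, against at most 16, and ion channel complex 14 and 14, against at most 12. Axon guidance, the steering of growing axons, had 16 genes in cluster 1 (10%) and 16 in cluster 3 (7.55%), against at most 14 in cluster 2 (6.54%). The upper ends were set by the listing limit, and the differences were not tested.

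For nucleosome, the lists of 483 and 343 genes with lowered H3K4me3 in Kansl1+/- and Del/+ could have held at most 9 and 8 genes, or 1.86% and 2.33%, against 6.07% of cluster 2 (3.27 to 10.2%). For 10 of the 14 nucleosome and chromatin terms in Kansl1+/- and 7 of the 14 in Del/+, however, the list could have held as many genes as cluster 2 without listing the term.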
